A study of Mus musculus with 6 samples.

Results

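The inhibitory receptors of myeloid cells and their ligand CD47 were examined in bulk RNA sequencing of MCA205 tumors. The set was chosen by gene name and holds 9 of the 54309 gene identifiers in the deposited table: *Sirpa*, *Cd47*, *Pirb*, *Lilrb4a*, *Lilr4b*, *Vsir*, *Siglece*, *Cd300a* and *Clec12a*. Each of the 9 passed the filter on low values (at least 10 normalized counts on average over the 6 tumors) and was among the 13963 genes tested. A normalized count is the number of reads of a gene divided by a size factor that corrects for the depth of the tumor. MCA205 is a cell line from a chemically induced fibrosarcoma of C57BL/6 mice, and it was grown under the skin of female C57BL/6J mice that were 7 weeks old. The Control group (n = 3) drank milliQ water. The FF-10101 group (n = 3) drank water with FF-10101 at 0.1 mg/mL from day 1, the day after inoculation. FF-10101 is a covalent inhibitor of the receptor tyrosine kinase FLT3 that also inhibits CSF1R, the receptor for macrophage colony-stimulating factor. Whole tumors were collected on day 8, and both groups carried the same transplanted line in wild-type hosts. The paper describes inoculation at the right flank and n = 3 per group, but the labels do not state whether each tumor came from its own mouse. The p values set the difference between groups against the spread among these 3 and 3 samples. As RNA came from whole tumors, fewer cells of a type and less RNA per cell cannot be told apart.

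Myeloid cells decide whether to engulf, kill or tolerate a neighbor by weighing activating against inhibitory receptors. Most inhibitory receptors carry a tyrosine motif in their tail, the immunoreceptor tyrosine-based inhibitory motif, which recruits the phosphatases SHP-1 and SHP-2 and so damps kinase signals. CD47 is displayed on nearly all cells and is read by SIRPα on macrophages as a signal not to engulf, which is why tumor cells with much CD47 resist phagocytosis. PIR-B (*Pirb*) reads MHC class I, VISTA (*Vsir*) restrains T cells and myeloid cells, Siglec-E (*Siglece*) binds sialic acids, CD300a binds lipids exposed on dying cells, and CLEC12A is a C-type lectin that senses products of dead cells. Of the gp49 pair, *Lilrb4a* encodes the inhibitory gp49B, whereas *Lilr4b* encodes gp49A, a near copy whose short tail lacks the inhibitory motif.

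The gp49 pair is shown first because its reads are hard to separate. In the GENCODE vM21 transcripts (GRCm38), the coding sequences of *Lilrb4a* and *Lilr4b* were 1005 and 909 bases long, and 871 of 907 aligned bases (96%) were identical. The first 120 coding bases of each differed at 2 positions, which stand in capitals.
Lilrb4a: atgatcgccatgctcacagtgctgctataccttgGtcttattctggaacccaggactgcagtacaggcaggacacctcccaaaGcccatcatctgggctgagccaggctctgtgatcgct
Lilr4b: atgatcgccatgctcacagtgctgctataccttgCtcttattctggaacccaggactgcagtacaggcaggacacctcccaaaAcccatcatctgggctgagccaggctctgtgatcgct
Of all stretches of 31 bases in the *Lilrb4a* transcripts, 97.3% also occurred in another gene, with 94.9% found in the annotation *Gm49339* and 41.9% in *Lilr4b*. For *Lilr4b* the shared part was 35.6%, with 34% found in *Gm49339* and 33.9% in *Lilrb4a*. By this measure *Gm49339* is closer to *Lilrb4a* than to *Lilr4b*. For *Pirb* the shared part was 45.6%, mostly with its activating relatives *Pira2*, *Gm14548* and *Gm15922*. The shared part of *Cd300a* was 8.41%, and that of *Sirpa*, *Cd47*, *Vsir*, *Siglece* and *Clec12a* lay between 0 and 1.78%. Reads of the gp49 pair and of *Pirb* can therefore be split between copies by estimation, and their values are less certain than those of the other members.

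Promoters are shown for the 4 members in which the motif GAGGAA was found, *Pirb*, *Cd300a*, *Clec12a* and *Siglece*. The receptors *Pirb*, *Cd300a* and *Clec12a* shared their highest value in Control tumor 1, and *Siglece* did not. RefSeq promoters (GRCm38.p6, 250 bases before to 50 after a start) were matched for 7 of the 9 members, the others being *Sirpa* and *Lilrb4a*. The motif GAGGAA, the core read by the myeloid transcription factor PU.1, was searched on both strands and stands in capitals in the 130 bases before each start, as GAGGAA or as its reverse complement.
Pirb, chr7:3720383-3720512, minus strand: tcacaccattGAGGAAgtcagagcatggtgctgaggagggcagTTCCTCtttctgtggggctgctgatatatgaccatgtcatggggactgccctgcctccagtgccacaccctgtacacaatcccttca
Cd300a, chr11:114889911-114890040, plus strand: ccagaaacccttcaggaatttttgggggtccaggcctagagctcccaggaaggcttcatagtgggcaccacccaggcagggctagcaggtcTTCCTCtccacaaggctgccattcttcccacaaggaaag
Clec12a, chr6:129350114-129350243, plus strand: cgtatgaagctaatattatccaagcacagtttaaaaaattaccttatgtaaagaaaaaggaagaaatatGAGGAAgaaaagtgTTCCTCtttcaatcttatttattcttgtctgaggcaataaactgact
Siglece, chr7:43660162-43660291, minus strand: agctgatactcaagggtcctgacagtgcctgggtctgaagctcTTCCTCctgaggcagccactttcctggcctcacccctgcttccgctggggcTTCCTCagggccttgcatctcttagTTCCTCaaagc
Within the full windows, 4 of the 7 member promoters (*Pirb*, *Siglece*, *Cd300a* and *Clec12a*) held GAGGAA, against 31.3% of 27025 genes with a promoter in the table. The promoter of *Vsir*, which was also highest in Control tumor 1, was matched and did not hold it. The STAT motif TTCNNNGAA was found in *Lilr4b* only, against 9.55% of genes. The motif was thus shared by receptors with like and unlike tumor profiles, and a match in letters is a description and not a binding site.

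The tumors held between 9143806 and 13258258 recovered reads. Macrophage markers (9 of 9 tested) summed to between 36198 and 64397 normalized counts in the Control tumors and between 23622 and 32870 in the FF-10101 tumors, without overlap, and none of the 9 passed an adjusted p of 0.05 in limma, while 4 of 9 had an unadjusted p under 0.05. The sum weighs abundant genes most, and the mean of log2(normalized count + 1) over the same 9 markers, centred on the 6 tumors, overlapped, at 0.77, -0.049 and -0.20 in Control and -0.56, -0.0098 and 0.043 in FF-10101 tumors. Their median log2 fold change was -0.25 with all tumors and 0.14 without Control tumor 1. Neutrophil markers (6 of 7 tested) summed to between 558 and 1229 in Control and between 1511 and 2255 in FF-10101 tumors, also without overlap, although *Ly6g*, a defining marker, had at most 0.764 normalized counts. Fibroblast and fibrosarcoma markers (5 of 5 tested), which include the collagen genes of the tumor line, summed to between 61287 and 204429 in Control and between 147736 and 244776 in FF-10101 tumors. Control tumor 1 stood apart from the other Control tumors and held the highest value of the 6 tumors in 8 of 9 macrophage, 5 of 6 conventional dendritic cell and 6 of 6 T cell markers, against 20.4% of all genes tested. It held the highest value in 1 of 6 monocyte and 1 of 6 neutrophil markers and in none of the tested plasmacytoid dendritic cell (4), NK cell (4), endothelial (4), fibroblast and fibrosarcoma (5) and B cell (1) markers. Compared with Control tumors 2 and 3 alone, its sum was higher in every list but that of B cells. It had 1435 against 467 and 399 for NK cell markers and 2995 against 1132 and 808 for endothelial markers. For fibroblast and fibrosarcoma markers it had 204429 against 84472 and 61287. Its excess over the other Control tumors was thus not limited to macrophage markers.

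The question put to each member was whether its RNA differed between Control and FF-10101 tumors. None of the 9 members passed an adjusted p of 0.05 (limma on log2(normalized count + 1)), against 6 of 13963 genes (0.043%), and limma-voom on the recovered reads also called 0 of 9. By an unadjusted p under 0.05, 0 of 9 members and 16.3% of all genes passed. The 2 groups overlapped for each of the 9 members, whereas 20.2% of all genes had groups that did not overlap. A p that missed the threshold does not show that the groups were alike, and the intervals below give the differences that these tumors allow.

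**Figure D1:**
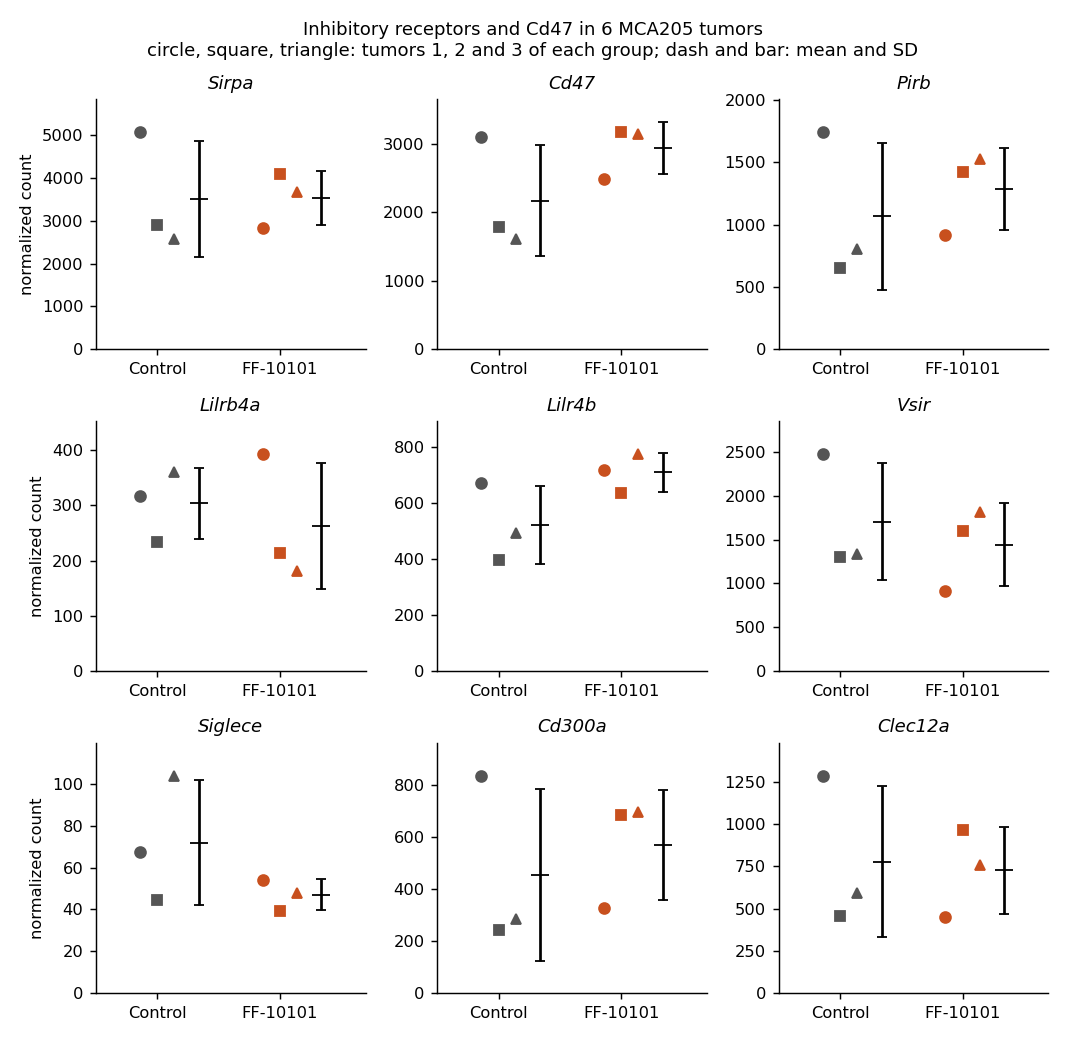
Normalized count (vertical axes, starting at 0) of each member in the 3 Control tumors (grey) and the 3 FF-10101 tumors (orange), with the mean and SD beside each group. Control tumor 1, the grey circle, is the highest of the 6 tumors for Sirpa, Pirb, Vsir, Cd300a and Clec12a, and the groups overlap in every panel.

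*Cd47*, the ligand, had 3096, 1787 and 1616 normalized counts in Control tumors 1, 2 and 3 and 2493, 3172 and 3149 in FF-10101 tumors 1, 2 and 3. The 2 lowest values were both Control, and Control tumor 1 lay within the range of the FF-10101 tumors. The means were 2166 ± 809 in Control and 2938 ± 386 in FF-10101 tumors (SD, n = 3 each), and the log2 fold change was 0.49 ± 0.26 (SE, 95% interval -0.099 to 1.08, limma adjusted p = 0.37). An increase of up to 1.08 on the log2 scale is thus within the interval.

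*Sirpa*, the receptor of CD47, had 5073, 2897 and 2575 normalized counts in the Control tumors and 2833, 4084 and 3675 in the FF-10101 tumors, in the same order. Control tumor 1 was the highest and Control tumor 3 the lowest of all 6, so that the FF-10101 values lay inside the Control range. The group means were 3515 ± 1359 and 3530 ± 638 (SD, n = 3 each), and the log2 fold change was 0.06 ± 0.27 (SE, 95% interval -0.58 to 0.69, limma adjusted p = 0.933). The receptor and its ligand were each tested against Control, and the difference between their changes was not tested.

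*Pirb* had 1744, 653 and 806 normalized counts in the Control tumors and 915, 1424 and 1524 in the FF-10101 tumors. All 3 FF-10101 tumors lay above Control tumors 2 and 3 and below Control tumor 1. The log2 fold change was 0.37 ± 0.37 (SE, 95% interval -0.48 to 1.22, limma adjusted p = 0.635). When the reads of *Pirb*, *Pira2*, *Gm14548* and *Gm15922* were summed, the tumors kept this arrangement, with 2317, 895 and 1085 against 1181, 1965 and 2116 normalized counts (log2 difference 0.37, exact two-sided permutation p = 0.6, where 0.1 is the smallest p that 3 against 3 tumors allow).

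*Lilrb4a*, which encodes gp49B, had 316, 234 and 361 normalized counts in the Control tumors and 393, 214 and 180.4 in the FF-10101 tumors. The highest and the lowest of the 6 values were both from FF-10101 tumors. The log2 fold change was -0.27 ± 0.31 (SE, 95% interval -0.99 to 0.45, limma adjusted p = 0.685). The value rests on how reads were assigned, since *Gm49339*, which shares nearly all of its sequence, had 690.0, 517 and 466 normalized counts in the Control and 545, 1034 and 1100 in the FF-10101 tumors. In FF-10101 tumors 2 and 3, where *Lilrb4a* was lowest, *Gm49339* was highest.

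*Lilr4b*, which encodes gp49A, had 673, 397 and 494 normalized counts in the Control tumors and 719, 636 and 775 in the FF-10101 tumors. A single FF-10101 value, 636 in tumor 2, lay below a Control value, 673 in tumor 1. *Lilr4b* had the smallest unadjusted p of the 9 members in limma. The means were 521 ± 140.3 and 710 ± 69.9 (SD, n = 3 each), and the log2 fold change was 0.47 ± 0.21 (SE, 95% interval -0.017 to 0.97, limma adjusted p = 0.32).

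Summed over *Lilrb4a*, *Lilr4b* and *Gm49339*, 3 annotations that share sequence, the gp49 genes had 1679, 1148 and 1320 normalized counts in the Control tumors and 1657, 1884 and 2056 in the FF-10101 tumors. The groups overlapped by the narrow margin between Control tumor 1 and FF-10101 tumor 1, and the log2 difference was 0.44 (exact two-sided permutation p = 0.2). The sum of *Lilrb4a* and *Gm49339* differed by 0.42 on the log2 scale (exact two-sided permutation p = 0.2), a sign opposite to that of *Lilrb4a* alone. Of the summed reads, *Lilrb4a* received between 18.8% and 27.3% in the Control tumors and 23.7%, 11.4% and 8.78% in the FF-10101 tumors. No direction is therefore given for *Lilrb4a*.

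**Figure D2:**
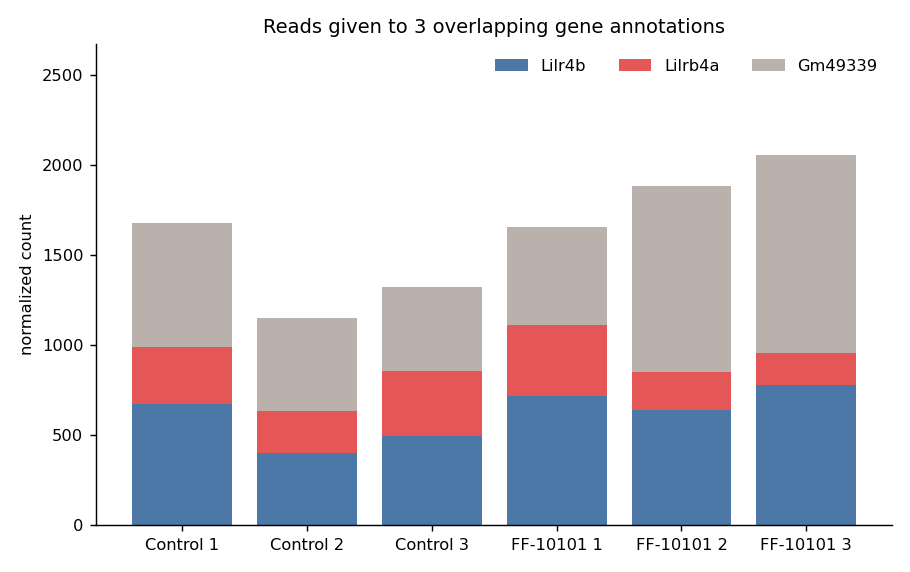
Stacked normalized counts (vertical axis) of Lilr4b, Lilrb4a and Gm49339 in each of the 6 tumors. The Lilrb4a share is smallest in FF-10101 tumors 2 and 3, where Gm49339 takes 54.9% and 53.5% of the summed reads.

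*Vsir*, which encodes VISTA, had 2476, 1298 and 1334 normalized counts in the Control tumors and 914, 1594 and 1818 in the FF-10101 tumors. The extremes were Control tumor 1 and FF-10101 tumor 1, which differed 2.71-fold. The log2 fold change was -0.23 ± 0.33 (SE, 95% interval -0.99 to 0.53, limma adjusted p = 0.745).

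*Siglece* was the scarcest member, with 67.5, 44.6 and 104 normalized counts in the Control tumors and 54.2, 39.1 and 48.0 in the FF-10101 tumors. Its high value was Control tumor 3 and not Control tumor 1. The log2 fold change was -0.53 ± 0.36 (SE, 95% interval -1.36 to 0.29, limma adjusted p = 0.478). *Siglece* thus had the lowest fold change of the members, and its interval still included 0.

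*Cd300a* had 834, 243 and 284 normalized counts in the Control tumors and 325, 682 and 696 in the FF-10101 tumors. It varied most of the members, 3.43-fold from the lowest to the highest tumor, and Control tumor 1 held 3.16 times the mean of the other Control tumors. The log2 fold change was 0.47 ± 0.49 (SE, 95% interval -0.66 to 1.61, limma adjusted p = 0.65).

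*Clec12a* had 1287, 455 and 591 normalized counts in the Control tumors and 452, 967 and 759 in the FF-10101 tumors. The lowest FF-10101 tumor was nearly equal to the lowest Control tumor, while the highest value was Control tumor 1. The log2 fold change was -0.02 ± 0.41 (SE, 95% interval -0.98 to 0.94, limma adjusted p = 0.986). For *Clec12a*, *Sirpa* and *Vsir* the sign of the difference turned when single tumors were left out, with log2 fold changes between -0.33 and 0.42, between -0.14 and 0.35, and between -0.43 and 0.07, and no direction is given for them.

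Over the 9 members, 5 fold changes were above 0 and 4 below, with a median of 0.06 on the log2 scale beside 0.02 over all genes tested. Without Control tumor 1 these medians were 0.42 and 0.036. By exact permutation of the tumors, the two-sided p of single members lay between 0.2 and 0.9.

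Control tumor 1 was the highest of the 6 tumors for 5 of the 9 members, *Sirpa*, *Pirb*, *Vsir*, *Cd300a* and *Clec12a*, against 20.4% of all genes. In it these 5 members were at 1.85 to 3.16 times the mean of Control tumors 2 and 3, and its macrophage markers were also the highest of the 6 tumors, with a sum of 64397 against 36198 and 36429. Its sums of T cell, NK cell, endothelial and fibroblast markers were likewise above those of Control tumors 2 and 3. Without Control tumor 1, 3 members were higher in FF-10101 tumors past an adjusted p of 0.05, *Cd47* (log2 fold change 0.78, limma adjusted p = 0.0115), *Lilr4b* (0.68, limma adjusted p = 0.0232) and *Pirb* (0.79, limma adjusted p = 0.043), and none was lower. In that comparison of 2 against 3 tumors, 12% of all genes were higher and 9.88% lower. *Cd300a* had the largest difference without Control tumor 1 (log2 fold change 1.03, limma adjusted p = 0.0541) and missed the threshold. Leaving out any of the other 5 tumors left no member past it. A fit in which limma weighted each tumor by its spread gave Control tumor 1 the lowest weight (0.139). It gave Control tumor 2 and FF-10101 tumor 2 the highest (5.39 and 8.08), and so rests mostly on 1 tumor of each group. It called 6 members higher, *Sirpa*, *Cd47*, *Pirb*, *Lilr4b*, *Cd300a* and *Clec12a*, where 32% of all genes were called higher. The calls of *Cd47*, *Pirb* and *Lilr4b* thus depend on how single tumors are left out or weighted.

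**Figure D3:**
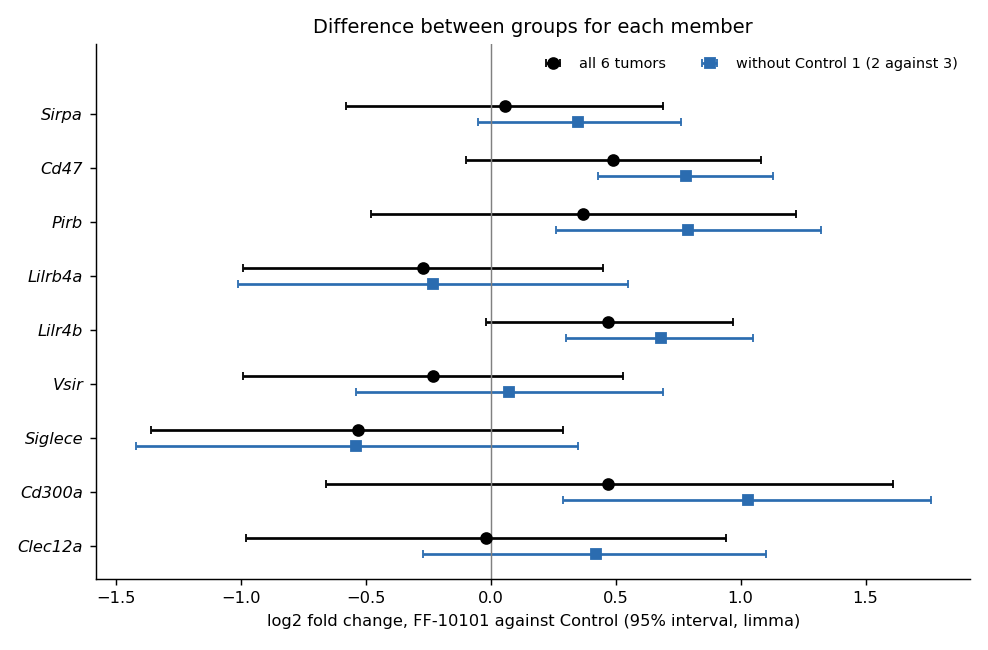
Log2 fold change of FF-10101 against Control (horizontal axis) with 95% intervals from limma, for all 6 tumors (black circles) and without Control tumor 1 (blue squares). With all tumors every interval includes 0, and without Control tumor 1 the intervals of Cd47, Pirb, Lilr4b and Cd300a lie above 0.

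The members fell into unlike profiles across the 6 tumors. Likeness was measured as the root mean square difference of log2(normalized count + 1) after subtraction of the mean of each gene, over 6 tumors that differ in their markers of cell types, and is given as a description. *Pirb* and *Cd300a* were the closest pair of members, at 0.20. Both were high in Control tumor 1 and in FF-10101 tumors 2 and 3, and low in the other 3 tumors. *Cd47* was nearest to *Lilr4b* (0.22), and *Sirpa* lay 0.23 from *Cd47* and 0.24 from *Vsir*. *Siglece* and *Lilrb4a* shared a high value in Control tumor 3 that no other member had.

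**Figure D4:**
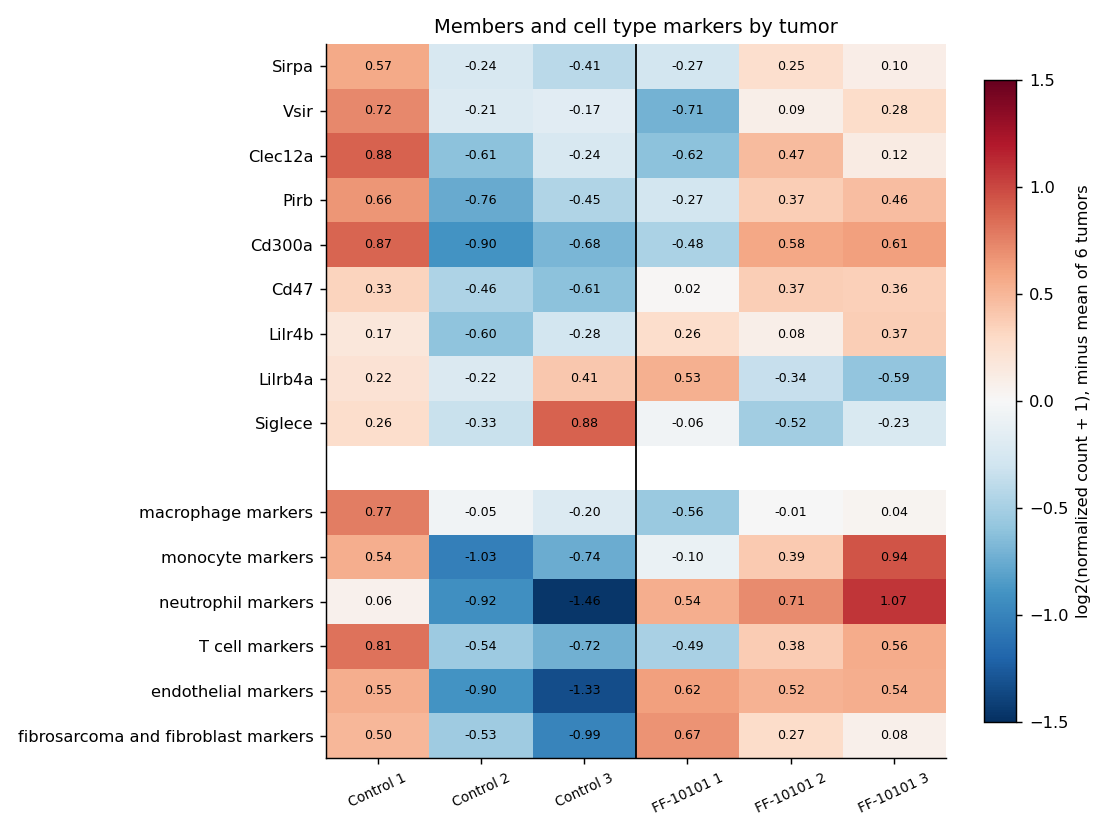
Log2(normalized count + 1) minus the mean of the 6 tumors (color scale and printed values) for the 9 members, and the mean of the same quantity over 6 lists of cell type markers. Control tumor 1 is at 0.57 to 0.88 for Sirpa, Vsir, Clec12a, Pirb and Cd300a and at 0.77 for the macrophage markers, while Siglece and Lilrb4a differ from this pattern. It is also at 0.81 for T cell, 0.55 for endothelial, 0.54 for monocyte, 0.50 for fibroblast and 0.062 for neutrophil markers.

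The genes with the profile nearest to each member, up to 3, were named by the same measure. For *Sirpa* these were *Ccdc88b* (0.036), *Rara* (0.064) and *Prkcd* (0.065), and for *Cd47* they were *Ets1* (0.035), *Mr1* (0.049) and *Pde4b* (0.058). *Pirb* was nearest to *Ggt5* (0.041), *Inpp5k* (0.049) and *Clec4a1* (0.06), and *Cd300a* to *Gpr55* (0.063), *Cd3e* (0.12) and *Havcr2* (0.12). *Cd3e* encodes a subunit of the T cell receptor complex, and the T cell markers were likewise highest in Control tumor 1. *Havcr2* belongs to the list of other inhibitory receptors of myeloid cells examined below. *Vsir* was nearest to *C3ar1* (0.096), the receptor of complement fragment C3a, *Ggh* (0.097) and *Vill* (0.10). *Clec12a* was nearest to *Cox6a2* (0.14), a gene of the plasmacytoid dendritic cell list, *Naip2* (0.16) and *Pltp* (0.16). *Lilr4b* was nearest to *Lgalsl* (0.062) and *Fstl3* (0.079). The neighbors of *Lilrb4a*, namely *Gadd45g* (0.11), *Mrps18b* (0.12) and *Taf5* (0.13), and those of *Siglece*, namely *Rnaseh1* (0.16), *AC132253.6* (0.16) and *Gm49396* (0.17), included no gene of the marker lists and no inhibitory receptor.

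Each member was also expressed relative to the mean of the macrophage markers, a scaling chosen after the data were seen. On this scale *Sirpa* was nearly constant in the Control tumors, at 0.31, 0.32 and 0.30 above the markers on the log2 scale, and at 0.80, 0.78 and 0.57 in the FF-10101 tumors. *Cd47* was at -0.41, -0.38 and -0.37 in the Control tumors and 0.61, 0.41 and 0.35 in the FF-10101 tumors. The groups did not overlap for 4 of 9 members, *Sirpa*, *Cd47*, *Pirb* and *Lilr4b*, against 27.9% of all genes. The scaling raised the median log2 fold change of all genes to 0.37, beside 0.41 for the members, so that *Sirpa* at 0.41 stood close to the median gene. *Cd47* (0.84), *Lilr4b* (0.83), *Cd300a* (0.82) and *Pirb* (0.72) stood above it. *Clec12a* (0.33), *Vsir* (0.12), *Lilrb4a* (0.08) and *Siglece* (-0.18) stood below it. None of the 9 members passed an adjusted p of 0.05 on this scale, against 1.09% of all genes, and the lowest was that of *Cd47* (limma adjusted p = 0.221). By an unadjusted p under 0.05, 4 of 9 members and 14.5% of all genes passed on it. The sign of *Lilrb4a*, *Vsir* and *Clec12a* turned to above 0. The part of macrophage content in these differences was not tested.

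Levels of different members were compared per kilobase of the longest coding transcript. *Sirpa* was the most abundant member, with a mean of 885 ± 238 normalized counts per kilobase (SD, 6 tumors), and exceeded *Cd47* at 486 ± 135 in 6 of 6 tumors. *Cd47* in turn exceeded *Lilr4b* in 6 of 6 tumors. Then followed *Lilr4b*, *Vsir*, *Pirb* and *Clec12a*, with means between 301 and 335 normalized counts per kilobase and spreads that exceeded the gaps between them. *Lilrb4a* followed at 205 ± 62.2 and was above *Cd300a* (110.0 ± 54.9) in 5 of 6 tumors. This place counts only reads assigned to *Lilrb4a*, which averaged 303 normalized counts in Control and 262 in FF-10101 tumors. With *Gm49339*, which shares nearly all of its sequence, the sum averaged 861 and 1155. The rank of *Lilrb4a* therefore depends on how reads were split and is not settled. *Lilr4b* shares 34% of its stretches of 31 bases with *Gm49339*, and their sum averaged 1079 in Control and 1603 in FF-10101 tumors. The rank of *Lilr4b*, also below *Cd47*, is thus not settled either. *Siglece* was the least abundant at 32.2 ± 13 and lay below *Cd300a* in each of the 6 tumors. The order of the first members depends on the length used, since with the median coding transcript *Cd47* came first at 2008 ± 557 and *Sirpa* followed at 967 ± 261. *Cd47* RNA also comes from cells other than myeloid cells, including the tumor cells, so its level is not a level per macrophage.

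**Figure D5:**
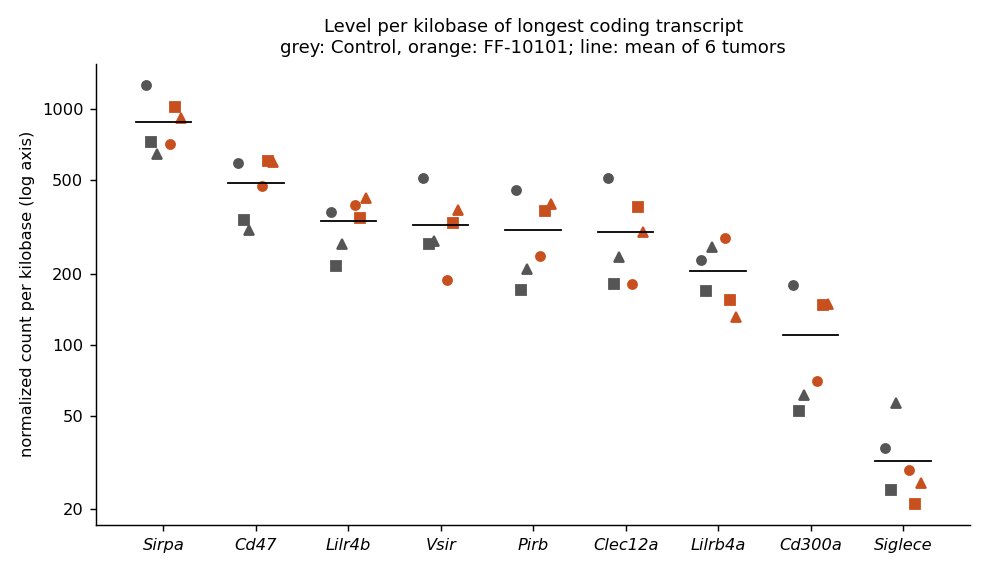
Normalized count per kilobase of the longest coding transcript (vertical log axis) for the 9 members in order of their mean, with Control tumors in grey, FF-10101 tumors in orange and the mean of 6 tumors as a line. Sirpa and Cd47 stand above the rest, Lilr4b, Vsir, Pirb and Clec12a lie together, and Siglece is lowest. Values count reads assigned to each member, and those of Lilrb4a and Lilr4b leave out Gm49339, so their ranks are not settled.

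The rest of the pathway was examined with 5 lists of genes, of which no gene passed an adjusted p of 0.05 in limma, and 2 or 3 genes of each list had an unadjusted p under 0.05, beside 16.3% of all genes. Among other inhibitory receptors of myeloid cells, 12 of 13 were tested, 6 were above and 6 below 0, and the median log2 fold change was -0.19 (0.025 without Control tumor 1). *Clec4a2*, an inhibitory C-type lectin also known as DCIR, had 688, 590.1 and 808 normalized counts in the Control tumors and 205, 402 and 384 in the FF-10101 tumors, which lay below all Control values (log2 fold change -1.12 ± 0.28 SE, limma adjusted p = 0.229). *Cd300lf*, a relative of *Cd300a* that binds phosphatidylserine, had 429, 185 and 141 against 487, 562 and 572, so that the FF-10101 tumors lay above all Control tumors (1.27 ± 0.37, limma adjusted p = 0.229). *Pilra* (-0.53, limma adjusted p = 0.252) also had groups that did not overlap, whereas those of *Lair1*, a receptor for collagen, overlapped (-0.54, limma adjusted p = 0.358). Groups did not overlap for 3 of the 12 genes, beside 20.2% of all genes. Receptors of the same kind therefore had differences of either sign, from -1.12 to 1.27, in the same tumors.

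Of the activating receptors and adaptors that oppose the members, 23 of 25 were tested, 9 were above and 14 below 0, and the median was -0.04 (0.28 without Control tumor 1). *Clec4e*, which encodes the receptor Mincle, had 258, 94.5 and 138 normalized counts in Control and 289, 443 and 461 in FF-10101 tumors, without overlap (log2 fold change 1.37 ± 0.37 SE, limma adjusted p = 0.229). *Clec7a*, which encodes Dectin-1, had 3039, 1867 and 1156 against 2632, 6040 and 5639 (1.26, limma adjusted p = 0.243), and *Clec4d* was at 1.32 (limma adjusted p = 0.321). *Lilra5*, at 19.2 ± 1.58 against 7.73 ± 2.09 normalized counts (SD, n = 3 each), was lower without overlap (-1.24, limma adjusted p = 0.266). Of the 23 genes, 1 was higher and 1 lower without overlap, beside 20.2% of all genes. *Pira2*, the activating relative of *Pirb*, had 436, 172 and 163 against 179, 362 and 366, the same arrangement of tumors as *Pirb* (0.32, limma adjusted p = 0.735), but the copies share reads.

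Among the phosphatases, kinases and adaptors that act below these receptors, 17 of 17 were tested, 9 were above and 8 below 0, and the median was 0.061 (0.28 without Control tumor 1). The leading genes were the 3 Dok adaptors, which restrain kinase signaling in myeloid cells. *Dok2* had 767, 737 and 663 normalized counts in Control and 382, 376 and 418 in FF-10101 tumors, with little spread within the groups (log2 fold change -0.88 ± 0.14 SE, limma adjusted p = 0.175). *Dok3* was at 353 ± 104 against 209 ± 8.31 (-0.71, limma adjusted p = 0.249) and *Dok1* at 984 ± 200.5 against 672 ± 85.8 (-0.54, limma adjusted p = 0.259), each without overlap. *Csk*, the kinase that holds Src kinases in check, was also lower without overlap (-0.38, limma adjusted p = 0.397). Its difference rests largely on Control tumor 1, at 2212 normalized counts against 1308 and 1408 in the other Control tumors. Without Control tumor 1, *Csk* was at -0.14 (limma adjusted p = 0.423) and *Dok3* at -0.52 (limma adjusted p = 0.118). *Dok2* was at -0.84 and *Dok1* at -0.70 in that fit. *Ptpn6*, which encodes SHP-1, was at 2517, 843 and 875 against 1191, 1278 and 1449 and so shared the high Control tumor 1 (0.08, limma adjusted p = 0.931), whereas *Ptpn11*, which encodes SHP-2, was at 1551, 1651 and 1365 against 1705, 1843 and 1842, higher in the FF-10101 tumors without overlap (0.24, limma adjusted p = 0.416). In all 5 of 17 genes were without overlap, 4 lower and 1 higher, beside 20.2% of all genes. In this list Control tumor 1 held the highest value for 15 of 17 genes.

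Of the other ligands, 15 of 16 were tested, 10 were above and 5 below 0, and the median was 0.26 (0.49 without Control tumor 1). *Cd200*, the ligand of the inhibitory receptor CD200R, had 253, 109 and 115 normalized counts in Control and 263, 279 and 337 in FF-10101 tumors, without overlap (log2 fold change 0.98 ± 0.33 SE, limma adjusted p = 0.245). It was 1 of 15 genes of the list without overlap, beside 20.2% of all genes. The integrin genes *Itgb3* (0.80, limma adjusted p = 0.285) and *Itgav* (-0.37, limma adjusted p = 0.358) differed in sign. *Thbs1*, which encodes thrombospondin-1, another ligand of CD47, had 4033, 1414 and 1327 against 3018, 2436 and 3889 (0.64, limma adjusted p = 0.467), again with Control tumor 1 high. *Qpctl*, whose enzyme modifies CD47 so that SIRPα binds it, was at 201, 117 and 141 against 153, 154 and 120.0 (-0.079, limma adjusted p = 0.893).

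In the phagocytosis list, 14 of 14 genes were tested, 8 were above and 6 below 0, and the median was 0.15 (0.35 without Control tumor 1). *Pros1*, which encodes the bridging ligand protein S, had 951, 613 and 461 normalized counts in Control and 1243, 1032 and 1189 in FF-10101 tumors (log2 fold change 0.83 ± 0.26 SE, limma adjusted p = 0.233). *Itgam*, which encodes CD11b, had 2488, 1846 and 1566 against 915, 1181 and 1450 (-0.73 ± 0.23 SE, limma adjusted p = 0.235). These were the 2 of 14 genes of the list without overlap, beside 20.2% of all genes. *Slamf7* was at 227 ± 229 against 511 ± 183 (1.59, limma adjusted p = 0.293), and *Gas6*, the other bridging ligand of the TAM receptors, at 847 ± 32.0 against 576 ± 379 (-0.88, limma adjusted p = 0.455). The difference of *Gas6* rests on FF-10101 tumor 1, which had 164 normalized counts against 655 and 910.2 in the other FF-10101 tumors, and was -0.13 on the log2 scale without it. Without Control tumor 1, the genes past an adjusted p of 0.05 were 2 of 12 other inhibitory receptors, 4 of 23 activating receptors and adaptors, 7 of 17 phosphatases, kinases and adaptors, 5 of 15 ligands and 4 of 14 phagocytosis genes higher, beside 12% of all genes. Lower were 1, 0, 2, 1 and 0 genes of these lists in the same order, beside 9.88% of all genes. Among them were *Cd300lf*, *Clec4e*, *Cd200*, *Pros1*, *Slamf7* and *Thbs1* higher and *Clec4a2*, *Dok2* and *Dok1* lower.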

How the data were processed

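Bulk RNA of 6 subcutaneous MCA205 tumors was sequenced, 3 from the Control and 3 from the FF-10101 group by their labels. Per the paper's methods and the submitters' processing notes, the authors trimmed reads with fastp version 0.19.5, estimated transcript abundance with Salmon version 1.5.1 on GENCODE vM27 (GRCm39) and tested genes with DESeq2 version 1.22.1. The deposited table holds log2 values of each gene in every tumor, and replicates were not pooled. The values have the form of a variance-stabilizing transformation, which the sources used here do not name. Its inverse gave whole reads (within 0.01) for 100% of 325854 values, and 1 size factor per tumor between 0.8884 and 1.3094. A count of 0 allows up to 3 reads, or 2.29 to 3.38 normalized counts, for counting error only. Because Salmon splits reads among similar transcripts by estimation, and strand is not stated, reads of near copies and overlapping genes are uncertain.

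The table had been planned for as normalized counts and holds log2 values, so normalized counts were recovered first. Genes that averaged 10 or more normalized counts were tested on log2(normalized count + 1), a scale that understates changes of scarce genes, with limma version 3.58.1 (eBayes with a trend) in R version 4.3.3, with the group as the sole term and Benjamini-Hochberg adjustment over 13963 genes. Single sums were compared with an exact two-sided permutation test. Names (51484 identifiers) and transcripts came from GENCODE vM21 on GRCm38, another build than the authors' GRCm39, and sequences were aligned with Biopython version 1.88. The limma fit alone was tested on simulated reads. The members and lists were chosen with earlier results of these data known. Named were all members, the 4 genes with the smallest p of each pathway list and the 3 nearest profiles of each member, of which 1 gene is not reported here. Other genes named, such as *Ptpn6*, *Ptpn11*, *Qpctl*, *Pira2* and *Gm49339*, were chosen after their values were seen.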

Additional observations from a re-analysis of the deposited data

How the results depend on the processing

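Of 162 log2 fold changes of members under 18 alternatives, 141 kept their sign and their side of the adjusted p of 0.05, 8 kept their sign and passed it, and 13 changed sign. Of 359 such values of the named pathway genes, 328 kept both, 31 passed it and 0 changed sign. The sign of *Clec12a* turned under quantile normalization (0.012). With array weights *Vsir* was at 0.25 and *Clec12a* at 0.94, and relative to the macrophage markers, a scaling chosen after seeing the data, *Lilrb4a* was at 0.08, *Vsir* at 0.12 and *Clec12a* at 0.33. With each tumor left out in turn, *Sirpa* ranged from -0.14 to 0.35, *Vsir* from -0.43 to 0.072 and *Clec12a* from -0.33 to 0.42. The genes past the threshold, 6 with all tumors, were 17 without a minimum count, 3 with a mean of at least 50, 8365 with array weights, 152 relative to the macrophage markers and 1 to 3051 with a tumor left out, the highest without Control tumor 1. The members past it, 0 with all tumors, were 6 with array weights and 0 to 3 with a tumor left out, and the median of the members was 0.67 with array weights and -0.14 to 0.42 with a tumor left out. Array weights were estimated from the same 6 tumors, at 0.139, 5.39 and 0.475 for Control and 0.406, 8.08 and 0.859 for FF-10101, so that this fit rests mostly on 1 tumor of each group. Pseudocounts of 0.5 and 10, scaling to the 75th percentile, the deposited log2 values, limma-voom on the recovered reads and no trend left the members past the threshold at 0. The replicate number as a block gave 1 gene and 0 members past the threshold. Deviations from the group means had correlations of -0.288, -0.0397 and -0.277 between tumors with the same number. Between tumors with different numbers they lay between -0.126 and 0.315. With 3 tumors per group, whose deviations sum to 0, these values cannot decide whether the numbers pair the tumors.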
